A study of Mus musculus with 4 samples.

Results

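Imprinted genes are genes that are read mainly from the chromosome inherited from 1 parent, and 38 of them were followed here among the 29224 genes of the count table. They were chosen by name, as well-characterised imprinted genes of the mouse, by a rule that uses no measured value. Earlier results of these data were, however, known when the members and the other gene lists below were chosen. All 38 had an entry in the table. Of the 38, 20 are known as paternally expressed, 9 as maternally expressed, and for the other 9 the expressed allele depends on the isoform or the tissue.

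In imprinting, DNA methylation laid down differently in egg and sperm marks an imprinting control region, and that mark decides which parental copy of the genes around it is used. The genes sit in domains that often pair protein-coding genes with a long non-coding RNA read from the opposite parental copy, and many of them act on growth, on the placenta and on the developing brain. Polycomb repressive complex 2, whose catalytic subunit EZH2 places the repressive H3K27me3 mark, is known to lie on the silent allele in some of these domains. RNA counts of the kind used here add both parental copies together, so the parent of origin of a transcript was not measured, and a change in level is not a change in imprinting.

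The study compared cortical astrocytes of Ezh2 f/f mice, which carry loxP-flanked Ezh2 alleles and no stated Cre, with those of Ezh2 cKO mice, in which the same floxed alleles were combined with Cre driven from Aldh1l1, an astrocyte gene. All 4 libraries, 2 per genotype, were made at postnatal day 5 from cells bound by magnetic beads against GLAST, the astrocyte glutamate transporter, and sequenced as RNA; the sample labels give the tissue only as cerebral cortex. Neither the labels nor the methods state whether the 2 libraries of a genotype came from separate mice, so p-values here measure the spread between these libraries. Total counts ran from 16273308 to 17522152 per library. Counts of Ezh2 itself were 434 and 327 in the f/f controls against 211 and 164 in the cKO, a log2 fold change of -1.11 (SE 0.16, adjusted p = 3.26e-05), so transcript of the targeted gene remained in the cKO samples.

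The cell type stated in the methods was checked against marker lists. Summed over 10 genes each, astrocyte markers came to 88.5 and 89.3 FPKM (fragments scaled to transcript length and library size) in the f/f controls and to 485 and 436 FPKM in Ezh2 cKO, while neuron markers came to 2233 and 2301 against 1915 and 1924 FPKM, so neuronal transcripts stood above astrocyte transcripts in every library. Markers of neural progenitors and immature neurons fell in 9 of 10 and rose in 1 of 10, with summed levels of 1814 and 1713 CPM in Ezh2 f/f against 456 and 497 CPM in Ezh2 cKO. Choroid plexus and ependyma markers summed to 399 and 788 CPM in the f/f controls and to 19.3 and 16.5 CPM in Ezh2 cKO. The sum was led by the choroid plexus gene Ttr with 6326 and 11598 counts against 5 and 12. Of the 7 markers of this list that were tested, 4 fell and 2 rose, so the list did not move as 1. Of the 8 markers each of the oligodendrocyte lineage and of microglia, all 8 rose in both lists, and 8 of the 10 astrocyte markers rose with none falling. Vascular and meningeal fibroblast markers rose in 3 of 8 and fell in 3 of 8, endothelial markers rose in 3 of 8 and fell in 1 of 8, and mural markers rose in 4 of 7 and fell in 1 of 7. Some lists share genes. Pdgfra is on the fibroblast and oligodendrocyte lists, Cspg4 on the mural and oligodendrocyte lists, and Dcx on the neuron and progenitor lists. In such bulk samples, fewer cells of a type and less RNA per cell cannot be told apart.

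Promoter sequences are shown for 4 members whose transcripts carry the contrasts described next: Nnat and Dlk1, both lower in Ezh2 cKO, and Meg3 and Peg3, both higher. Each is a window of 300 bases, 250 before and 50 after the RefSeq transcript start, on build GRCm38.p6 and printed 5′ to 3′ on the strand of the gene. The windows are chr2:157559828-157560127 on the plus strand for Nnat, chr12:109452573-109452872 on the plus strand for Dlk1, chr12:109540746-109541045 on the plus strand for the first of the pair of Meg3 starts, and chr7:6730370-6730669 on the minus strand for Peg3. Capitals mark TGCCGC or its reverse complement GCGGCA, the core hexamer bound by ZFP57 when methylated, a zinc finger protein that protects imprinted methylation.
Nnat: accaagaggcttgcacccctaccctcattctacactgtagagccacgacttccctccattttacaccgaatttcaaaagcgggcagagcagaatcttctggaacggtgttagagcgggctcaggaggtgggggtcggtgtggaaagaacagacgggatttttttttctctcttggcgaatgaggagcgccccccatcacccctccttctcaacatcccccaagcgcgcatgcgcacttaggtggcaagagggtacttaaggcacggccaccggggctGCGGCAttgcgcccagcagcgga
Dlk1: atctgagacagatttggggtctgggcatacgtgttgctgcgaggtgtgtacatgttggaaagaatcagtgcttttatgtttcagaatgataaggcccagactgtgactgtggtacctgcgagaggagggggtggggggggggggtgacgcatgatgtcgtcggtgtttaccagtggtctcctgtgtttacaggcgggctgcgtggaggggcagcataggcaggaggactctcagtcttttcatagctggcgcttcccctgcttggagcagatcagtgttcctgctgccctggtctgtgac
Meg3: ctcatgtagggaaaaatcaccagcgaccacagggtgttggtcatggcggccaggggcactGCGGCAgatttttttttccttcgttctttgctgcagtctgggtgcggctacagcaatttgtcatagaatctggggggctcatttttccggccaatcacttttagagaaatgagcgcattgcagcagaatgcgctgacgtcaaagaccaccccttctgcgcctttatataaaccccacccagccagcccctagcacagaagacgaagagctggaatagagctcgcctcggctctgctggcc
Peg3: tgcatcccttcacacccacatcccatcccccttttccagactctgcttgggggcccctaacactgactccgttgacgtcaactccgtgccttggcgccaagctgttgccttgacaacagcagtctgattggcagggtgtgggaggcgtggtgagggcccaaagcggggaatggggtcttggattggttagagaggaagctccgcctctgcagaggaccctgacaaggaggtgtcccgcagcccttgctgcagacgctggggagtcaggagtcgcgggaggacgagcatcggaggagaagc
The Nnat and the Meg3 window each held the hexamer 1 time, on the reverse strand, and the Dlk1 and Peg3 windows held it 0 times. The Peg3 window shares 263 bases with that of Usp29, which is read from the other strand, so the promoter region of these neighbours is largely common. A window was found for 30 of the 38 members, 44 windows in all, and 11 of these, or 25.0%, contained the hexamer on either strand, against 11.6% of all 32851 mouse windows of the same length. The 11 windows belonged to 10 members, namely Nnat, Mest, Copg2, Nap1l5, Zim1, Snrpn, Igf2, Plagl1, Grb10 and Meg3. Mest counts with overlapping windows, chr6:30737800-30738099 and chr6:30737803-30738102, that hold the same matches, so the windows are not independent promoters. Of these Copg2, Nap1l5, Snrpn and Meg3 rose, Nnat, Mest, Igf2 and Plagl1 fell, and Zim1 and Grb10 did not pass. Member windows had a median of 14.5 CG dinucleotides, with 17 in Nnat, 13 in Peg3, 13 in Meg3 and 9 in Dlk1, against a median of 7 over all windows. These matches describe letters and not binding, and no methylation was measured here. Cdkn1c, H19, Impact, Peg10, Peg13, Rtl1, Sgce and Trappc9 are named without a promoter window.

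Imprinted genes changed in both directions between the genotypes. Of the 38 members, 36 had enough counts to be tested, 13 rose and 17 fell in the cKO (adjusted p under 0.05), and 6 did not pass. The 30 members called are 83.3% of those tested, read against 68.4% of all 16793 genes tested, with 34.7% of all genes higher and 33.6% lower. At 2-fold or more, 3 members rose (Impact, Ddc and Rtl1) and 7 fell (Dlk1, H19, Peg10, Nnat, Cdkn1c, Magel2 and H13), 27.8% of the tested members. Of all genes 33.0% passed that threshold, 19% higher and 14.0% lower. The median log2 fold change of the tested members was -0.17, against 0.02 over all genes tested. Counts scaled to library size (CPM) did not overlap between the genotypes in 33 of 36 members, 91.7%, against 84.3% of all genes. Since most genes of the table differed between these 4 libraries, a changed member is no rarity here, and the description below turns on which members moved, in which direction and by how much.

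**Figure D1:**
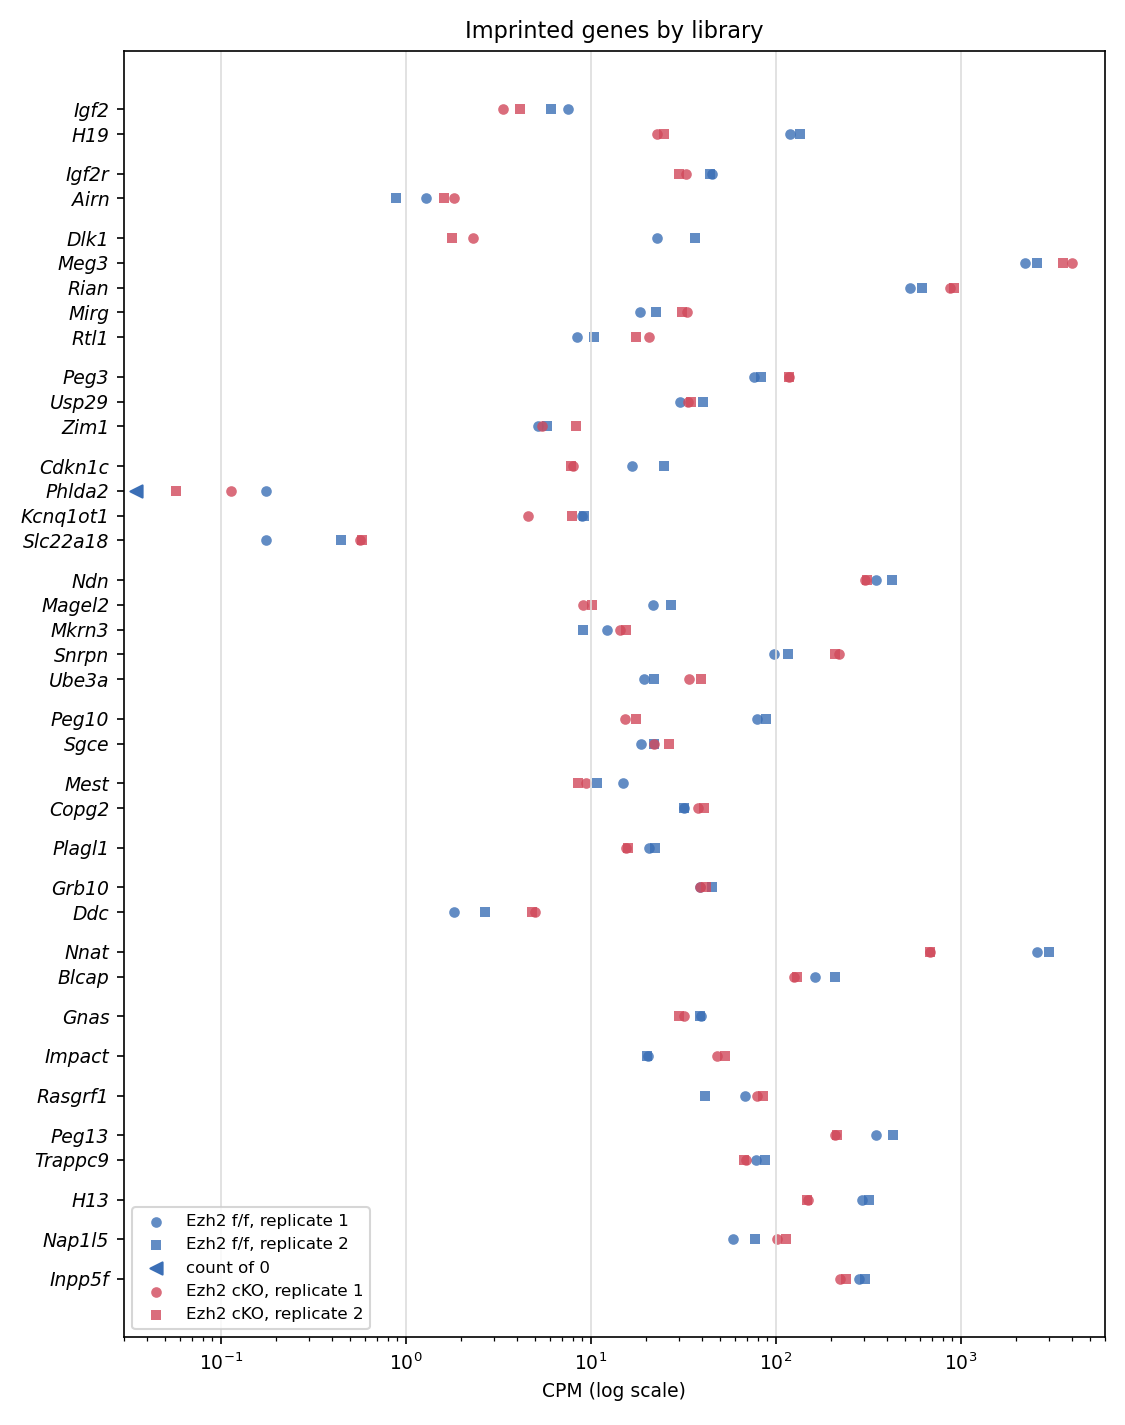
Level of each of the 38 imprinted genes in CPM on a log axis, with blue points for the 2 Ezh2 f/f libraries, red points for the 2 Ezh2 cKO libraries, circles for replicate 1 and squares for replicate 2, ordered by imprinted domain, and a triangle at the left edge for a count of 0. Nnat has the highest CPM in the Ezh2 f/f libraries and Meg3 in the Ezh2 cKO libraries, and Nnat, Peg10, H19 and Dlk1 show wide gaps with the red points to the left.

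The imprinted transcripts together took up a nearly constant share of each library, 0.758% and 0.866% of counts in the f/f controls and 0.773% and 0.758% in Ezh2 cKO, but their make-up differed. Nnat, a small membrane proteolipid of the endoplasmic reticulum abundant in developing neural tissue, provided 0.253% and 0.289% of all counts in the f/f controls and 0.0693% and 0.0712% in Ezh2 cKO. Meg3, a maternally expressed long non-coding RNA, provided 0.218% and 0.25% in the f/f controls and 0.407% and 0.372% in Ezh2 cKO. The leading imprinted transcript by count was therefore Nnat in the Ezh2 f/f libraries and Meg3 in the Ezh2 cKO libraries.

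Nnat, the member with the highest FPKM in each of the 4 libraries, was 4.09-fold lower in Ezh2 cKO. Its gene (ENSMUSG00000067786, chromosome 2, 157401998 to 157404442 on the plus strand, as deposited, in a build the files do not name) lies inside Blcap, which is read from the opposite strand. Nnat stood at 2591 and 2990 CPM in the f/f controls and at 681 and 685 CPM in Ezh2 cKO. The log2 fold change was -2.03 (SE 0.08, adjusted p = 1.74e-10), and the groups lay far apart. In FPKM, which allows genes to be ranked within a library, Nnat held rank 16 and 11 of all genes in the f/f controls and rank 73 and 68 in Ezh2 cKO. Blcap, a small membrane protein whose isoforms differ in imprinting in brain, stood at 163 and 209.5 CPM against 126 and 131 CPM, a log2 fold change of -0.54 (SE 0.11, adjusted p = 0.00066). The ratio of Nnat to Blcap in FPKM was 26.4 and 23.7 in the f/f controls and 8.98 and 8.71 in Ezh2 cKO, so counts of the nested gene fell further than those of its host. Because use of strand in counting is not stated, reads of Nnat and Blcap cannot be told apart where they overlap. Any part of Nnat reads in the Blcap values was not tested. Around the pair, 14 other genes within 500 kb were tested, of which 9 fell and 3 rose with a median log2 fold change of -0.52. The share called was 85.7%, against 68.4% of all genes tested, of which 33.6% were lower and 34.7% higher.

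In the Dlk1-Meg3 domain on chromosome 12, Dlk1 fell while the 4 other members rose. Dlk1 (ENSMUSG00000040856, 109418749 to 109429262, plus strand), the paternally expressed transmembrane protein with EGF repeats that keeps precursor cells immature, stood at 22.8 and 36.8 CPM in the f/f controls and at 2.33 and 1.79 CPM in Ezh2 cKO. In counts these were 390 and 578 against 41 and 31, and both cKO libraries lay well below both controls. The log2 fold change of -3.85 (SE 0.25, adjusted p = 1.16e-08), 14.4-fold lower, was the lowest of all tested members.

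The maternally expressed non-coding RNAs of the same domain rose together by almost equal amounts. Meg3 (ENSMUSG00000021268, 109506884 to 109538160, plus strand) stood at 2236 and 2594 CPM in Ezh2 f/f against 3997 and 3582 CPM in Ezh2 cKO, with a log2 fold change of 0.65 (SE 0.08, adjusted p = 5.75e-06). Rian, the host of small nucleolar RNAs, stood at 534 and 618 against 872 and 924 CPM and rose by 0.64 on the log2 scale (SE 0.09, adjusted p = 1.37e-05). Mirg, which hosts a cluster of microRNAs, stood at 18.6 and 22.4 against 33.3 and 31.1 CPM and rose by 0.65 (SE 0.13, adjusted p = 0.000423). The ratio of Meg3 to Rian in FPKM was 7.41 and 7.42 in the f/f controls and 8.11 and 6.85 in Ezh2 cKO, with the control values between those of the cKO. The ratio of Meg3 to Dlk1 went from 30.6 and 22.1 to 537 and 626.

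Rtl1, a retrotransposon-derived gene that is paternally expressed like Dlk1, lies between Meg3 and Rian on the other strand and moved with its non-coding neighbours. It stood at 8.43 and 10.4 CPM in the f/f controls and at 20.5 and 17.5 CPM in Ezh2 cKO, with a log2 fold change of 1.01 (SE 0.16, adjusted p = 7.94e-05). An antisense transcript of the maternal copy is known to cross Rtl1, and since the sources used here do not state whether the counting used strand, reads of both cannot be told apart. Of further genes known from this domain, Dio3, the paternally expressed deiodinase that inactivates thyroid hormone, fell with a log2 fold change of -2.54 (SE 0.24, adjusted p = 4.10e-07; 157 and 139 counts against 25 and 29). Begain, at the other end, did not pass (log2 fold change -0.07, adjusted p = 0.49).

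**Figure D2:**
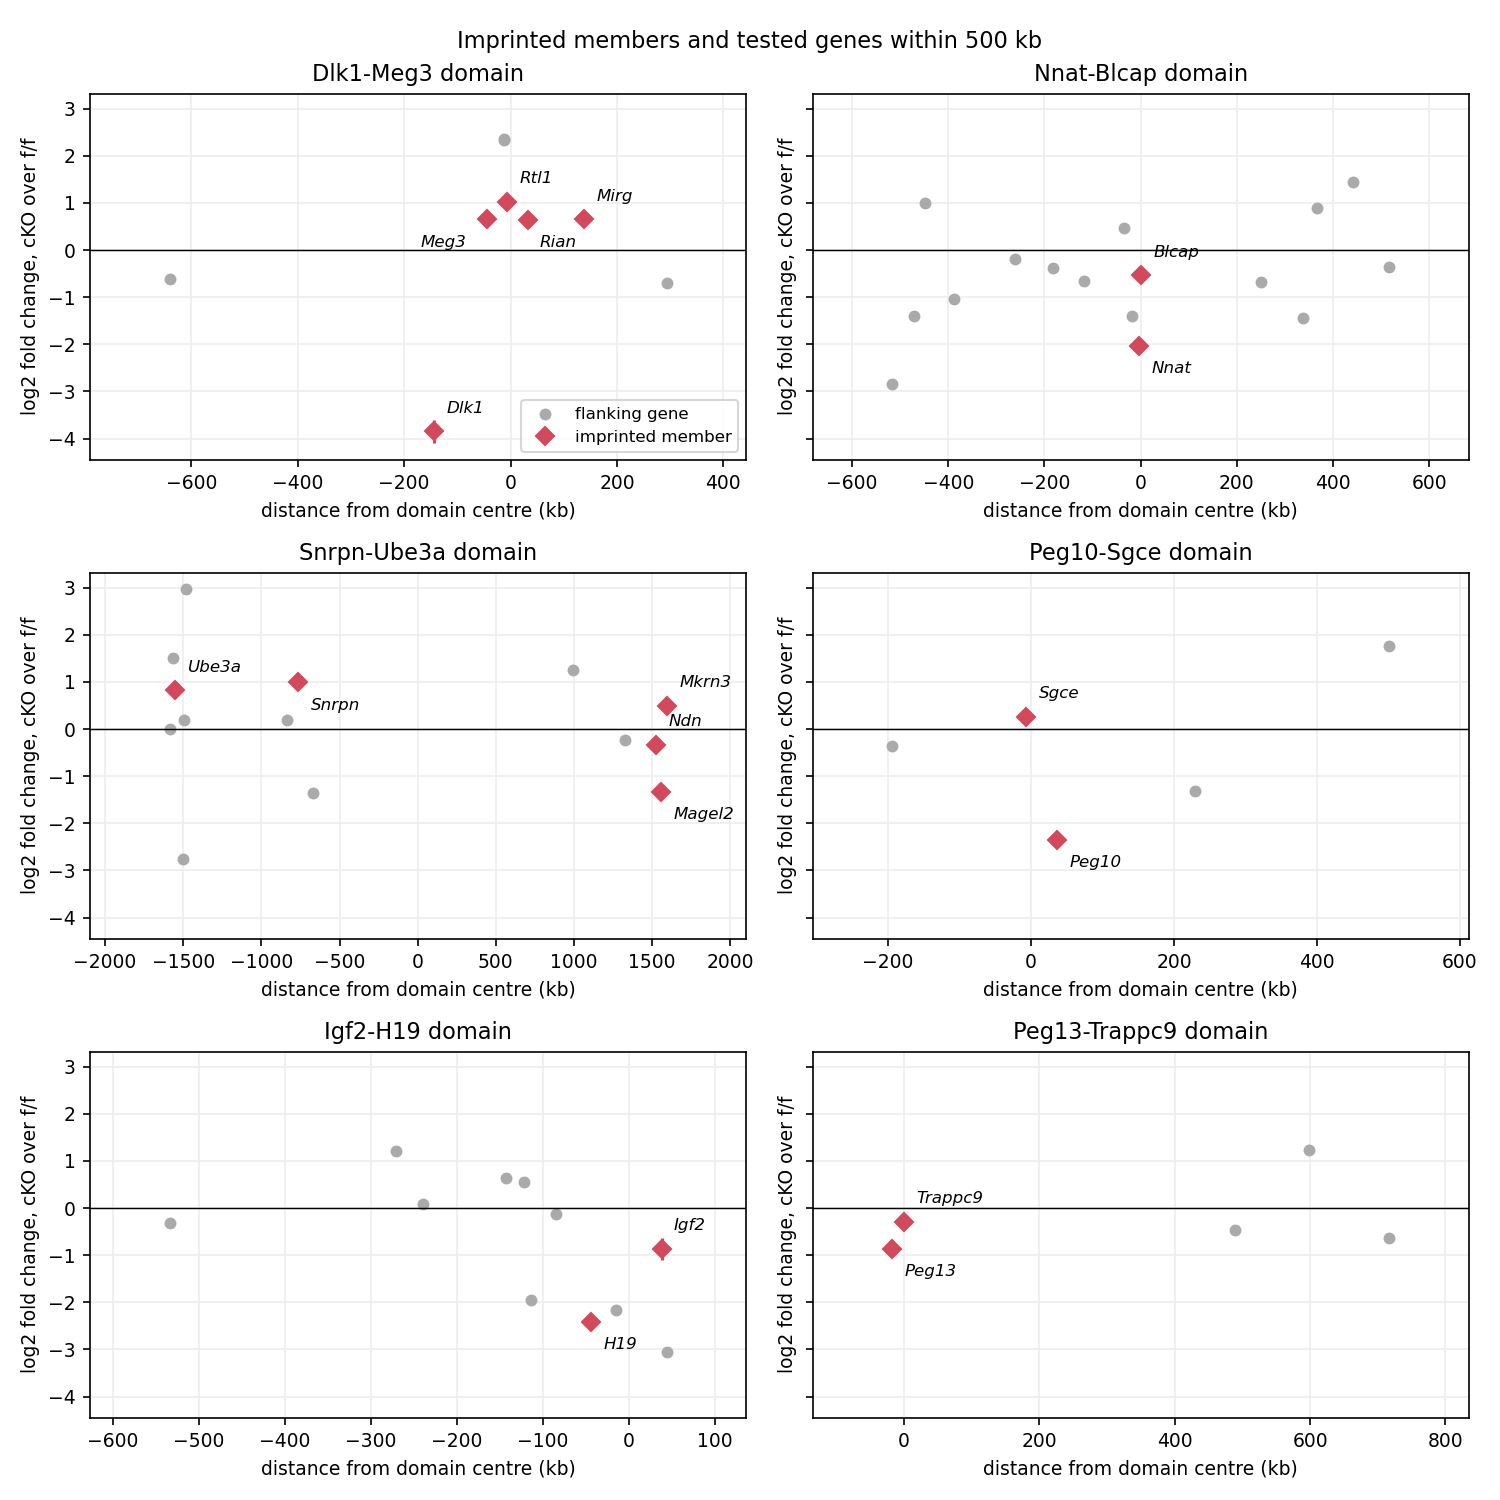
Log2 fold change of Ezh2 cKO over Ezh2 f/f against distance in kb from the middle of 6 imprinted domains, with red diamonds for members (bars, standard error) and grey points for other tested genes within 500 kb that are on no imprinted list. Dlk1 at -3.85 stands apart from Meg3, Rtl1, Rian and Mirg at 0.64 to 1.01, and in the Peg10-Sgce panel Peg10 at -2.35 lies below Sgce at 0.25.

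Both members of the Igf2-H19 domain on chromosome 7 were lower in Ezh2 cKO. H19 (ENSMUSG00000000031, 142129266 to 142131880, minus strand), a maternally expressed long non-coding RNA that is abundant in the embryo and is normally shut down after birth, stood at 119 and 136 CPM in the f/f controls and at 22.8 and 24.9 CPM in Ezh2 cKO. The fall of 5.34-fold (log2 fold change -2.42, SE 0.11, adjusted p = 4.92e-10) left no overlap between the groups. Igf2, the paternally expressed fetal growth factor, was a rarer transcript here at 7.55 and 6.11 against 3.35 and 4.16 CPM. Its log2 fold change was -0.87 (SE 0.23, adjusted p = 0.00376), and without replicate 1 of the cKO it was -0.72 and no longer passed. H19 exceeded Igf2 in FPKM by 36.7 and 51.7 times in the f/f controls and by 15.9 and 13.9 times in Ezh2 cKO. In the adult brain Igf2 is known mainly from choroid plexus and meninges. The choroid plexus and ependyma marker sum given above was led by Ttr. It differed by far more than Igf2 between the genotypes and also between the Ezh2 f/f libraries. Of these libraries, replicate 2 had the higher marker sum and replicate 1 the higher Igf2. H19, at 119 and 136 CPM, and Dlk1, at 22.8 and 36.8 CPM, were like the marker sum higher in replicate 2. Vascular and meningeal fibroblast markers, of which 3 of 8 rose and 3 fell, moved the other way in sum, from 858 and 771 CPM in the f/f controls to 1476 and 1268 CPM in the cKO. Among them, Pdgfra, which is also on the oligodendrocyte list, rose, and the collagen gene Col1a2 fell (log2 fold change -0.37). That sum is therefore not a measure of meningeal cells alone. The part of choroid plexus or meningeal RNA in the change of Igf2, H19 and Dlk1 was not tested.

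The receptor that clears IGF2 from the cell surface, Igf2r, was also lower. It stood at 45.4 and 44.4 CPM in the f/f controls and at 32.9 and 30.2 CPM in Ezh2 cKO, with a log2 fold change of -0.51 (SE 0.10, adjusted p = 0.000563). Airn, the paternally expressed antisense RNA that starts within Igf2r and silences it on the same chromosome in most tissues, had 22 and 14 counts against 32 and 28. Its log2 fold change of 0.65 (SE 0.37) did not pass (adjusted p = 0.134). The spans of the 2 genes overlap on opposite strands, so the low counts of Airn are uncertain.

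Cdkn1c, the maternally expressed inhibitor of cyclin-dependent kinases that takes precursor cells out of the cycle, was the member of the Kcnq1ot1 domain with the highest FPKM. It stood at 16.8 and 24.8 CPM in the f/f controls and at 8.05 and 7.85 CPM in Ezh2 cKO, 2.61-fold lower (log2 fold change -1.38, SE 0.19, adjusted p = 1.57e-05). Kcnq1ot1, the paternally expressed RNA that silences the domain and is known to act with polycomb proteins, stood at 8.96 and 9.16 against 4.59 and 7.97 CPM. Both cKO libraries lay below the controls but differed from each other, and the log2 fold change of -0.53 (SE 0.23) did not pass (adjusted p = 0.0555). That outcome rested on single libraries, since the value was -0.18 without replicate 1 of the cKO, which did not pass, and passed at -0.97 without replicate 2 of the cKO and at -0.55 and -0.53 without replicate 1 and 2 of the f/f. Phlda2, which limits placental growth, had 3 and 0 counts against 2 and 1, and Slc22a18, a membrane transporter, had 3 and 7 against 10 and 10. Both fell under the default count filter, and neither passed in the alternatives that kept them (lowest adjusted p 0.98 for Phlda2 and 0.149 for Slc22a18). Phlda2 lay at or under the floor of 3 counts, which equals 0.170 to 0.191 CPM here, in all 4 libraries, so this depth could not show a difference in Phlda2.

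Among other imprinted genes listed for this cluster, Ascl2, a transcription factor of trophoblast, fell with a log2 fold change of -3.29 (SE 0.34, adjusted p = 1.12e-06; 83 and 93 counts against 12 and 7). Nap1l4, a histone chaperone, fell by 0.66 on the log2 scale (adjusted p = 1.19e-05), and Tssc4 fell by 0.85 (adjusted p = 1.49e-05). Cd81, a tetraspanin of the same cluster that was named after its values were seen, rose by 0.54 (adjusted p = 8.66e-05).

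In the Prader-Willi and Angelman domain on chromosome 7, 3 members rose and 2 fell. Snrpn, a paternally expressed component of the splicing machinery, stood at 97.7 and 117 CPM in the f/f controls and at 218 and 208 CPM in Ezh2 cKO, and rose by 0.99 on the log2 scale (SE 0.10, adjusted p = 1.02e-06). Ube3a, the ubiquitin ligase whose maternal copy is the active one in neurons, stood at 19.4 and 22.02 against 33.9 and 39.3 CPM and rose by 0.82 (SE 0.12, adjusted p = 4.54e-05). Snhg14, the paternally expressed antisense RNA that runs through Ube3a and is known to silence it in neurons, rose by 0.90 (SE 0.15, adjusted p = 8.24e-05), so sense and antisense counts were both higher. Because they overlap on opposite strands, their reads could have been shared in counting.

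At the far end of that domain lie 3 intronless genes. Magel2, a MAGE family regulator of ubiquitin ligases, stood at 21.7 and 27.3 CPM in the f/f controls and at 9.13 and 10.2 CPM in Ezh2 cKO, 2.53-fold lower (log2 fold change -1.34, SE 0.16, adjusted p = 3.93e-06). Ndn, a related MAGE protein linked to neuronal differentiation, was the more abundant by FPKM and stood at 348 and 425 against 302 and 311 CPM. Its log2 fold change was -0.33 (SE 0.10, adjusted p = 0.00777), which no longer passed without replicate 1 or replicate 2 of the cKO (-0.31 and -0.35) or without replicate 2 of the f/f (-0.20). Mkrn3, a RING finger ubiquitin ligase, went the other way, from 12.2 and 9.10 to 14.5 and 15.6 CPM (log2 fold change 0.49, SE 0.17, adjusted p = 0.019). That call was lost without either cKO library (0.55 and 0.44) or without replicate 2 of the f/f (0.29). The ratio of Snrpn to Ndn in FPKM was 0.481 and 0.472 in the f/f controls and 1.24 and 1.14 in Ezh2 cKO, so the order of these paternal transcripts of 1 domain turned.

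Peg10 and Sgce, both paternally expressed and read in opposite directions from neighbouring starts on chromosome 6, did not move together. Peg10 (ENSMUSG00000092035, 4747306 to 4760517, plus strand), a retrotransposon-derived gene needed for the placenta, stood at 78.8 and 89.0 CPM in the f/f controls and at 15.3 and 17.7 CPM in Ezh2 cKO, 5.09-fold lower (log2 fold change -2.35, SE 0.11, adjusted p = 7.05e-10). Sgce, which encodes epsilon-sarcoglycan of the membrane, stood at 18.7 and 21.96 against 22.1 and 26.4 CPM, and its log2 fold change of 0.25 (SE 0.14) did not pass (adjusted p = 0.122), but without replicate 2 of the f/f it was 0.36 and passed. In FPKM, Peg10 exceeded Sgce by 6.70 and 6.45 times in the f/f controls and by 1.10 and 1.06 times in Ezh2 cKO, so a gap between neighbours was nearly gone. Pon2, a lipid-linked paraoxonase of the same cluster, rose by 1.22 on the log2 scale (SE 0.12, adjusted p = 4.63e-07).

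**Figure D3:**
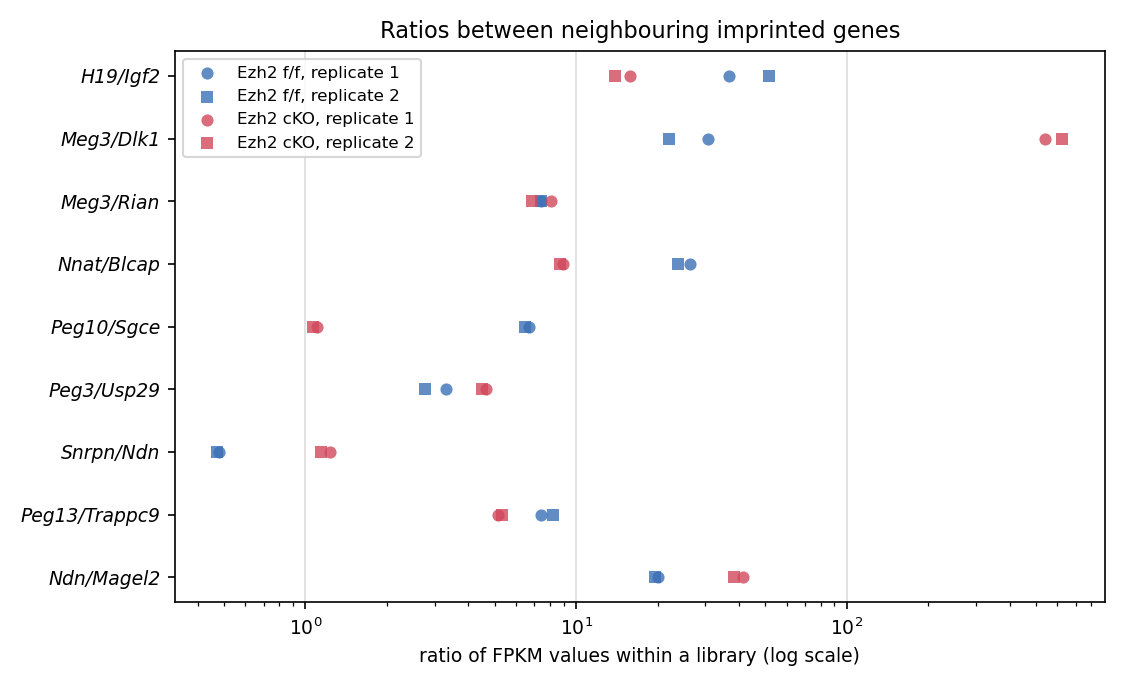
Ratio of FPKM between neighbouring imprinted genes within each library, on a log axis, with blue points for Ezh2 f/f and red points for Ezh2 cKO, circles for replicate 1 and squares for replicate 2. The Meg3 to Dlk1 ratio is 22.1 to 30.6 in the f/f controls and 537 to 626 in Ezh2 cKO, while the Meg3 to Rian ratio overlaps between the genotypes.

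The Peg3 domain, also on chromosome 7, changed little apart from Peg3 itself. Peg3, a paternally expressed zinc finger protein with roles in growth and maternal behaviour, stood at 76.3 and 83.4 CPM in the f/f controls and at 117 CPM in both Ezh2 cKO libraries (log2 fold change 0.56, SE 0.09, adjusted p = 0.000119). Usp29, the ubiquitin protease gene that shares the promoter region shown above, stood at 30.6 and 40.2 against 33.6 and 34.7 CPM, with the cKO values inside the range of the controls. Its log2 fold change was -0.05 (SE 0.13, adjusted p = 0.746). Zim1, a maternally expressed zinc finger gene, stood at 5.21 and 5.79 against 5.45 and 8.37 CPM and did not pass (log2 fold change 0.33, SE 0.23, adjusted p = 0.221). The ratio of Peg3 to Usp29 in FPKM was 3.31 and 2.75 in the f/f controls and 4.64 and 4.49 in Ezh2 cKO.

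**Figure D4:**
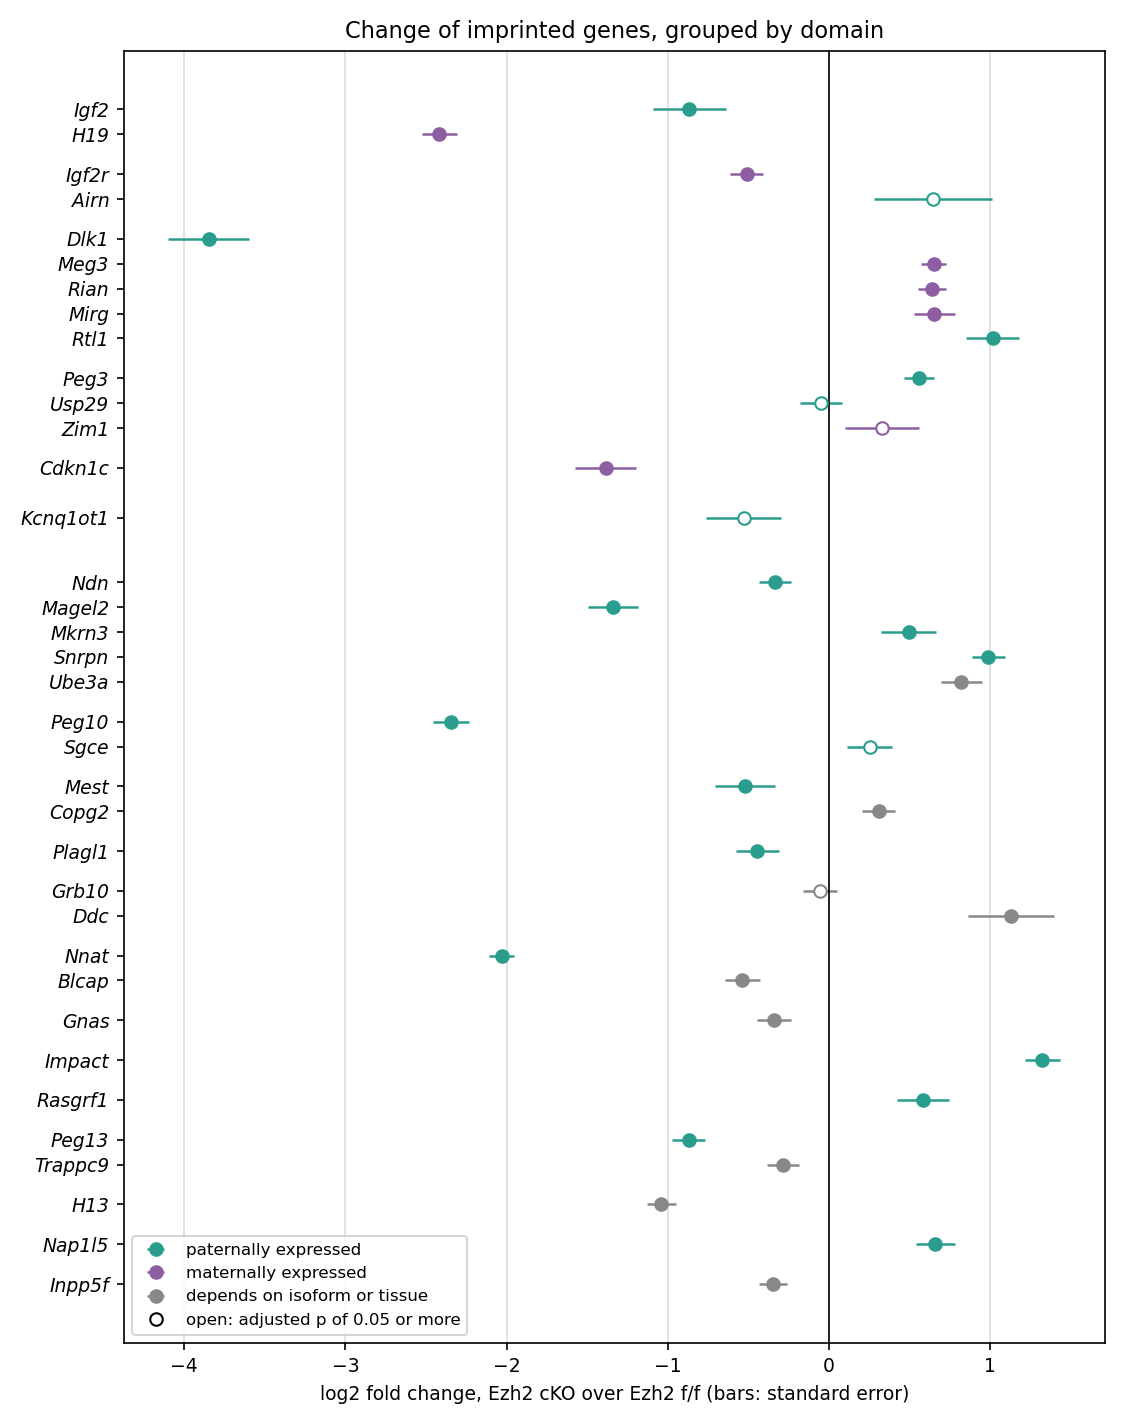
Log2 fold change of Ezh2 cKO over Ezh2 f/f for the 36 tested imprinted genes, ordered by domain, with bars for the standard error, colours for the known expressed allele and open symbols for an adjusted p of 0.05 or more. Values run from -3.85 for Dlk1 to 1.32 for Impact, and each colour has points on both sides of 0.

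Imprinted genes that stand alone or in small domains gave the largest rise and a further fall. Impact, a paternally expressed inhibitor of the stress kinase GCN2 that is known from neurons, stood at 20.4 and 20.05 CPM in the f/f controls and at 48.0 and 53.4 CPM in Ezh2 cKO. It was 2.50-fold higher (log2 fold change 1.32, SE 0.11, adjusted p = 1.28e-07), the highest value among the tested members. H13, the signal peptide peptidase, stood at 292 and 319 against 149 and 148 CPM, 2.06-fold lower (log2 fold change -1.04, SE 0.09, adjusted p = 1.56e-07). Its intronic retrogene Mcts2 is known to make the paternal copy of H13 stop early, and it rose by 0.68 on the log2 scale (SE 0.19, adjusted p = 0.0055; 125 and 97 counts against 170 and 207). Mcts2 is read from the same strand as H13, so reads of both cannot be told apart where they overlap. Any link between the rise of Mcts2 and the fall of H13 was not tested. Mcts2 was named after its value was seen, and its call was lost without replicate 2 of the cKO (0.52).

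Nap1l5, a paternally expressed gene of the nucleosome assembly family that lies inside Herc3 on the other strand, stood at 58.9 and 76.9 CPM in the f/f controls and at 101 and 113 CPM in Ezh2 cKO (log2 fold change 0.66, SE 0.12, adjusted p = 0.000248). Its host Herc3, a ubiquitin ligase, rose further, with 245 and 248 counts against 1408 and 1652 (log2 fold change 2.54, SE 0.12, adjusted p = 5.51e-10), and reads of host and guest cannot be told apart where they overlap. Peg13, a paternally expressed non-coding RNA nested in Trappc9 on the same strand, stood at 347 and 429 against 210 and 214 CPM and fell by 0.87 on the log2 scale (SE 0.10, adjusted p = 3.66e-06). Reads of Peg13 and Trappc9 cannot be told apart where they overlap. Trappc9, a vesicle trafficking factor, stood at 78.6 and 87.6 against 68.7 and 67.5 CPM (log2 fold change -0.29, SE 0.10, adjusted p = 0.018), a call lost without either cKO library (-0.30 and -0.27) or without replicate 2 of the f/f (-0.22). Kcnk9, the potassium channel of this cluster, rose by 2.14 (SE 0.11, adjusted p = 1.42e-09), and Chrac1, a chromatin accessibility factor, fell by 1.71 (SE 0.10, adjusted p = 4.97e-09).

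On chromosome 11, Grb10, an adaptor that restrains insulin receptor signalling and switches its expressed allele in neurons, stood at 39.2 and 45.2 CPM in the f/f controls and at 39.2 and 41.9 CPM in Ezh2 cKO. The groups overlapped and the log2 fold change was -0.06 (SE 0.11, adjusted p = 0.655). Ddc, the neighbouring decarboxylase that makes dopamine and serotonin, stood at 1.82 and 2.67 against 4.99 and 4.79 CPM and was 2.19-fold higher (log2 fold change 1.13, SE 0.27, adjusted p = 0.00182).

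Mest and Copg2 overlap at their ends on chromosome 6 and moved in opposite directions. Mest, a paternally expressed gene of early mesoderm, stood at 15.0 and 10.8 CPM in the f/f controls and at 9.42 and 8.54 CPM in Ezh2 cKO (log2 fold change -0.52, SE 0.19, adjusted p = 0.0223). Copg2, a coat protein subunit of transport vesicles, stood at 31.9 CPM in both Ezh2 f/f libraries and at 38.2 and 40.8 CPM in Ezh2 cKO (log2 fold change 0.31, SE 0.10, adjusted p = 0.0173). The Mest call was lost without either cKO library (-0.59 and -0.45) or without replicate 1 of the f/f (-0.26), and the Copg2 call without either cKO library (0.36 and 0.26).

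Smaller shifts were seen in the remaining members. Plagl1, a paternally expressed zinc finger regulator of other imprinted genes, stood at 20.7 and 22.2 against 15.6 and 15.9 CPM (log2 fold change -0.45, SE 0.13, adjusted p = 0.00873), a call lost without either cKO library (-0.43 and -0.46). Gnas, which encodes the stimulatory G protein subunit and several imprinted isoforms that the gene count adds together, stood at 39.4 and 38.8 against 31.8 and 30.0 CPM (log2 fold change -0.34, SE 0.10, adjusted p = 0.01), a call lost without replicate 2 of the cKO (-0.30). Inpp5f, a phosphoinositide phosphatase with an imprinted brain variant, stood at 282 and 304 against 222 and 239 CPM (log2 fold change -0.35, SE 0.09, adjusted p = 0.00295). Rasgrf1, a paternally expressed Ras activator of mature neurons, stood at 68.4 and 41.7 against 79.7 and 85.4 CPM, with the Ezh2 f/f libraries far apart. Its log2 fold change of 0.58 (SE 0.16, adjusted p = 0.00574) was 0.99 without replicate 1 of the f/f and 0.26 without replicate 2, and the call was lost without the latter or without either cKO library (0.63 and 0.54).

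Members that rose and members that fell were found in each class of known expressed allele. The counts by class stand beside 34.7% higher and 33.6% lower over all genes tested, with a median log2 fold change of 0.02. Of the 20 paternally expressed members, all tested, 7 rose and 9 fell, with a median log2 fold change of -0.19. Of the 9 maternally expressed members, 7 were tested, 3 rose and 3 fell, with a median of 0.33. Of the 9 whose expressed allele depends on isoform or tissue, 3 rose and 5 fell, with a median of -0.29. The 3 maternal members that rose were Meg3, Rian and Mirg, which lie in 1 domain, are read from the same strand and are not independent of each other. Among the 7 long non-coding RNAs, 3 rose and 2 fell, and among the 29 tested protein-coding members 10 rose and 15 fell. No difference between classes was tested.

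Members whose span overlaps a gene on the other strand numbered 16, of which 4 rose and 9 fell, while of the 20 tested members without such overlap 9 rose and 8 fell. In each set 3 members did not pass. Over all genes tested, 34.7% rose and 33.6% fell. The difference in direction between the sets was not tested. Reads in overlapping exons of opposite strands may be counted for the wrong gene or dropped where counting ignores strand, and its part in these values was not tested.

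Most markers of progenitors and immature neurons were lower in Ezh2 cKO, as were the members that fell most and 33.6% of all genes tested. Dlk1, H19, Peg10, Nnat, Cdkn1c, Magel2 and H13 were each lower in both Ezh2 cKO libraries. So were 9 of the 10 progenitor and immature neuron markers, with sums of 456 and 497 against 1814 and 1713 CPM. Between the Ezh2 f/f libraries, the progenitor sum was higher in replicate 1 and each of the named members in replicate 2. The choroid plexus and ependyma sum given above, led by Ttr, was also lower in the cKO, and was higher in replicate 2 of the f/f. Of the 7 tested markers in that sum, 4 fell and 2 rose. Cycling markers fell in 6 of 8 and rose in 0, with sums of 207 and 194 CPM in the f/f controls and 128 and 121 CPM in Ezh2 cKO. The 13 members that rose were Copg2, Ddc, Impact, Meg3, Mirg, Mkrn3, Nap1l5, Peg3, Rasgrf1, Rian, Rtl1, Snrpn and Ube3a. Of all genes tested, 34.7% rose. Of the neuron markers, 8 of 10 rose and 2 fell in the same libraries. The neuron sums were 6371 and 6625 CPM in the f/f controls against 6732 and 6777 CPM in Ezh2 cKO. The other 17 called members fell beside the same neuron markers. On the FPKM scale given above, the summed neuron level was instead lower in the cKO. Glial markers rose further in the same libraries, with median log2 fold changes of 2.02 for astrocytes, 1.93 for microglia and 1.43 for the oligodendrocyte lineage, and astrocyte sums of 456 and 468 against 2749 and 2512 CPM. The part of cell composition or maturity in the change of the imprinted genes was not tested.

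Imprinted genes outside the 38 were read from a separate list of 41, of which 38 had an entry and 33 were tested. Of these 16 rose and 9 fell, against 34.7% higher and 33.6% lower of all genes tested. Their median log2 fold change was 0.46, against 0.02 over all genes tested and -0.17 for the members. Besides Herc3, Kcnk9 and Pon2, those that rose with the smallest p were Slc22a3, an organic cation transporter beside Igf2r with 39 and 32 counts against 173 and 219 (log2 fold change 2.37, SE 0.23, adjusted p = 5.04e-07), and Ntm, a neuronal adhesion molecule, at 1.02 (SE 0.10, adjusted p = 8.08e-07). Those that fell with the smallest p were Chrac1, Dio3, Ascl2, Nap1l4 and Tssc4, given above with their domains.

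A further list held 5 genes whose imprinting in early embryo and placenta is known to rest on maternal H3K27me3, the mark that EZH2 writes, rather than on DNA methylation. Sfmbt2, a polycomb group protein, rose from 21 and 28 to 53 and 71 counts (log2 fold change 1.24, SE 0.32, adjusted p = 0.0031), a call lost without replicate 2 of the cKO (1.00). Gab1, a docking protein of growth factor receptors, fell by 0.64 on the log2 scale (SE 0.13, adjusted p = 0.000441), and Smoc1, a matricellular protein, fell by 0.67 (SE 0.10, adjusted p = 5.23e-05). Slc38a4, an amino acid transporter, with 32 and 22 counts against 46 and 42, and Jade1, with 426 and 380 against 355 and 393, did not pass (log2 fold change 0.61 and adjusted p = 0.0935, and -0.20 and adjusted p = 0.178). The list's median was -0.20.

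Of 12 listed partners of IGF2, 8 fell and 2 rose, against 33.6% lower and 34.7% higher of all genes, with a median log2 fold change of -0.65. The count that fell was 4 in each limma fit on FPKM. Igf2bp1 and Igf2bp2, fetal RNA-binding proteins named for binding Igf2 mRNA, went from 110 and 106 to 14 and 6 counts (log2 fold change -3.51, SE 0.34, adjusted p = 5.37e-07) and from 300 and 223 to 62 and 63 counts (-2.15, SE 0.19, adjusted p = 2.34e-07). Igfbp3, a secreted binding protein, fell by 1.88 on the log2 scale (SE 0.11, adjusted p = 3.39e-09), Igfbp2 fell by 0.59 (SE 0.10, adjusted p = 0.000136), and Igf1r, the receptor through which IGF2 signals growth, fell by 0.72 (SE 0.12, adjusted p = 0.000148). Igfbp5 rose by 0.94 (SE 0.11, adjusted p = 2.99e-06) and Igf1, the postnatal ligand, by 0.66 (SE 0.17, adjusted p = 0.00341).

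Genes near the imprinted domains but on no imprinted list changed about as often as genes in general. Within 500 kb of a member, 159 such genes were tested, of which 56 rose and 50 fell, 66.7% against 68.4% of all genes, with a median log2 fold change of 0.08. Around Dlk1 and Meg3, 4 were tested, 2 of them microRNA precursors that rose, and Wdr25 fell by 0.61 on the log2 scale. The precursors lie 0.513 and 1.16 kb from Rtl1. Igf2os, which overlaps Igf2, was also among the 159 (log2 fold change -3.05), so the set includes transcripts from inside the domains. Around Igf2 and H19, 9 were tested, of which 2 rose and 4 fell.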

How the data were processed

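RNA-seq was available for 4 libraries of cortical astrocytes isolated with anti-GLAST magnetic beads at postnatal day 5, 2 per genotype (Ezh2 f/f and Ezh2 cKO), sequenced on an Illumina HiSeq platform. The authors deposited raw counts per gene and, in a second table, FPKM values, which the deposited counts, library totals and gene lengths reproduced. The submitters' processing notes name Bowtie2 2.2.3, TopHat2 2.0.12, HTSeq 0.6.0 and mm9. The deposited gene coordinates name no build; 1 of 38 members had the same start and end in RefSeq GRCm38.p6 and 12 of 38 overlapped that span, so they are given as deposited and were not converted. Use of strand in counting is not given in the sources used here. Columns with the authors' own fold changes and p-values were not used.

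Counts were tested with the quasi-likelihood test of edgeR 4.0.16 (R 4.3.3) after TMM scaling and the default filter on low counts, with Benjamini-Hochberg adjustment over all 16793 genes tested and a threshold of 0.05. With 2 libraries against 2, an exact two-sided permutation test could not give a p below 0.333, so none was run. CPM are relative to the TMM-scaled library size. FPKM were used to compare genes within a library. On simulated counts with 200 genes changed over 16370 genes, edgeR found 189 and called 13 others. That setting changed few genes, with as many raised as lowered, whereas 68.4% of genes were called in the real counts. It therefore cannot show how TMM scaling behaves when so many genes differ. Replicate libraries were not duplicates, with a chi-square per degree of freedom of 8.92 between the f/f libraries and 5.68 between the cKO libraries; the common biological coefficient of variation was 0.0953. Alternatives were DESeq2 1.42.0, its size factors in edgeR, limma 3.58.1 on log2(FPKM + a pseudocount of 1 or 0.1, with genes kept at 1 FPKM in at least 2 libraries, or unfiltered), other count filters, a replicate block, each library left out, and other flanking windows.

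Members, lists and tests were chosen with earlier results of these data known. Every member was named, those called at 2-fold or more or leading a domain in FPKM with values in each library, and up to 5 genes per direction by smallest p in the other lists. Promoter windows and their coordinates came from RefSeq GRCm38.p6, matched by symbol.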

Additional observations from a re-analysis of the deposited data

How the results depend on the processing

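Of the 30 members called, 19 kept the call in every alternative that tested them, 11 lost it in at least 1, and none of the 30 changed sign. The calls lost were those of Blcap, Copg2, Gnas, Igf2, Inpp5f, Mest, Mkrn3, Ndn, Plagl1, Rasgrf1 and Trappc9, 9 of them with a library left out and 10 in a limma fit on FPKM. With DESeq2, 26 of the 30 calls remained, and those of Copg2, Mest, Mkrn3 and Rasgrf1 were lost. Among members that did not pass, Usp29 (log2 fold change -0.05) was 0.043 and 0.027 in the limma fits and -0.24 to 0.15 with a library left out, Zim1 (0.33) was -0.0098 to 0.61 and Grb10 (-0.06) was 0.029 and 0.024 in limma and -0.16 to 0.034. Of listed genes that did not pass, Begain was 0.012 and 0.011 in limma and -0.14 to 0.00049 with a library left out, Klf14 0.00069 in the unfiltered limma fit and -0.32 to 0.19, Th -0.14 to 0.27, Tnfrsf23 -0.42 to 0.011, Cdkn1a -0.28 to 0.060 and Cdkn2b -0.39 to 0.49. The count of members lower in Ezh2 cKO, 17, was 9 in the unfiltered limma fit. For the other imprinted genes the count lower, 9, was 5 in limma with either pseudocount and 4 with a mean of at least 50 counts. For the H3K27me3-dependent genes the count higher, 1, was 0 in all limma fits, with at least 50 counts and without replicate 2 of the cKO. IGF partners higher went from 2 to 1 in the unfiltered limma fit, and those lower from 8 to 4 in all limma fits. The single cyclin-dependent kinase inhibitor lower went to 0 with DESeq2, limma, either other count filter, or without replicate 1 of the cKO. Flanking genes higher, 56, were 35 with at least 50 counts, 16 within 100 kb and 99 within 1000 kb, and those lower, 50, were 13 and 105 in these windows. The cause of these differences was not tested beyond the smaller or larger number of genes that the filters and windows admit.

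With the replicate number as a block, 30 of the 30 member calls remained and Kcnq1ot1 gained a call (-0.56, adjusted p = 0.0138), so that 18 members were lower rather than 17; DESeq2 size factors also gave 18. The deviations of libraries with the same number correlated at 0.12 over genes, but with 2 pairs and no label that ties a number to a litter or day, the numbers do not establish a pairing. Leaving out a cKO library left that group with 1 sample, assumed to vary like the other group, and 22 of 30 calls remained in each case, against 29 and 26 without replicate 1 and 2 of the f/f. Depth limits Phlda2 and Slc22a18, which did not pass in the fits that kept them, and widens the errors of Airn, Ddc and Zim1.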

Other observations

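Factors known to guard imprinted methylation were mostly lower in Ezh2 cKO. Of 9 listed genes 8 had an entry and were tested, and 6 fell and 1 rose, against 33.6% lower and 34.7% higher of all genes. The median log2 fold change was -0.86, against 0.02 over all genes. Trim28, the corepressor that ZFP57 brings to imprinting control regions, went from 13646 and 12423 counts in the f/f controls to 3916 and 3746 in the cKO (log2 fold change -1.86, SE 0.08, adjusted p = 3.47e-10). Ctcf, the insulator protein that separates Igf2 from its enhancers on the maternal copy, fell by 1.08 on the log2 scale (SE 0.11, adjusted p = 1.33e-06), and the maintenance methyltransferase Dnmt1 fell by 0.94 (SE 0.10, adjusted p = 1.46e-06). Its partner Uhrf1 fell by 0.89 (adjusted p = 0.000411), the histone methyltransferase Setdb1 by 0.83 (adjusted p = 3.38e-06) and Zfp57 by 0.73 (adjusted p = 7.96e-06). The de novo methyltransferase Dnmt3a rose by 0.84 (SE 0.09, adjusted p = 1.13e-06), and Zfp445 did not pass (log2 fold change -0.20, adjusted p = 0.129), but did without replicate 2 of the f/f (-0.36). Dnmt1 and Uhrf1 are also known from dividing cells, and 6 of 8 cycling markers fell in these libraries; the part of cycling cells in the list was not tested.

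The other cyclin-dependent kinase inhibitors did not share 1 direction. Of 6 genes besides Cdkn1c listed, 5 were tested, with a median log2 fold change of 0.11. Cdkn2d, an INK4 inhibitor of postmitotic neurons, rose from 613 and 724 to 1545 and 1453 counts (log2 fold change 1.07, SE 0.11, adjusted p = 1.58e-06). Cdkn1b fell by 0.31 on the log2 scale (SE 0.13, adjusted p = 0.0409), a call lost without replicate 1 of the cKO (-0.14) or of the f/f (-0.26), while without replicate 2 of the cKO the value was -0.51. Cdkn1a, Cdkn2b and Cdkn2c did not pass, with log2 fold changes of -0.11, 0.11 and 0.30, although Cdkn1a passed without replicate 1 of the f/f (-0.28).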
